A study of Mus musculus with 4 samples.

Results

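Peaks emerging from background were genomic windows whose NANOG ChIP-seq signal in mouse embryonic stem cells (ESCs) lay under 0.9 RPKM in uninduced cells and at 2 RPKM or more after acute depletion of OCT4. RPKM is the read count of a window scaled to its length and to the size of the library, and 0.9 RPKM is the level above which a window counts as bound. Each window spans 175 bp on either side of a NANOG summit. Among 21066 such windows, 16608 were bound in at least 1 condition, and 301 of these (1.81% of bound windows) met the rule. The 301 peaks were chosen on the condition values that the comparison itself uses, so their rise is a description and was not tested. The name is a working one and is borne out only in part, because the uninduced library that a choice did not use held more signal than the one it used.

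Both conditions came from ZHBT-O4AID ESCs of strain 129SV, which carry Oct4-/-, TetOFF Oct4, CAG Oct4AID and CAG Tir1 and were grown in N2B27 with the inhibitors PD03 and Chiron and with mLIF. Doxycycline kept the TetOFF Oct4 transgene silent in all cells, so their OCT4 came from the constitutive CAG promoter and carried an auxin-inducible degron, a tag through which the TIR1 adaptor has the protein degraded when auxin is present. Uninduced cells were untreated (2 libraries), and IAA cells received 500 μM indole-3-acetic acid, an auxin, for 1.5 h (2 libraries). No library from cells without the degron was analysed here, so an effect of IAA itself cannot be told apart from one of OCT4 loss. RPKM is relative to all reads of a library, and bound peaks as a whole were higher after IAA.

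NANOG is a homeodomain transcription factor of the naive pluripotency network, and it shares many enhancers with OCT4 and SOX2. OCT4 is a POU factor that binds DNA through an octamer sequence, often next to a SOX site. Factors of the network, among them the orphan nuclear receptor ESRRB, KLF proteins and STAT3, bind clustered sites in enhancers, and occupancy of a weak site can depend on the other factors there.

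The central parts of 6 peaks follow, the highest by IAA signal among those with all 4 libraries on their side of the thresholds. They are shown because they are the strongest signals that followed the rule library by library. The letters are the plus strand of GRCm38 from RefSeq, and each sequence is named by its nearest protein-coding gene. Lower case in this listing does not mark repeats, because the case of the reference was not kept. They lie at chr2:33436386-33436586 (Zbtb34), chr2:126053238-126053438 (Fgf7), chr15:25932144-25932344 (Retreg1), chr5:64500092-64500292 (Tbc1d1), chr6:17813372-17813572 (St7) and chr4:62693285-62693485 (Rgs3). Capitals mark matches, on either strand, to ACAAAG (bound by SOX factors) or AAGGTCA (bound by orphan nuclear receptors such as ESRRB), and none of the 6 sequences holds CCATTA, a core recognised by homeodomains of the NANOG type.
Zbtb34: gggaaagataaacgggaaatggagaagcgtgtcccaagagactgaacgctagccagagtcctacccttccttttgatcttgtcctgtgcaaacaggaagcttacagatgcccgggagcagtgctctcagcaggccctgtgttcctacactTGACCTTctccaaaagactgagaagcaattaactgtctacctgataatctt
Fgf7: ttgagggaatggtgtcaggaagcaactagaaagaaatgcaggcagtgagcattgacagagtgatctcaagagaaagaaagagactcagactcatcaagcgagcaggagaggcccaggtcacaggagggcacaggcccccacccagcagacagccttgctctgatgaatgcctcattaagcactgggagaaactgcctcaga
Retreg1: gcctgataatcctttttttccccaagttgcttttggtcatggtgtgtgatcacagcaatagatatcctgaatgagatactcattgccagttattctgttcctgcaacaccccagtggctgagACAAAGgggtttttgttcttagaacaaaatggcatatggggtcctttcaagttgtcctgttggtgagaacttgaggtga
Tbc1d1: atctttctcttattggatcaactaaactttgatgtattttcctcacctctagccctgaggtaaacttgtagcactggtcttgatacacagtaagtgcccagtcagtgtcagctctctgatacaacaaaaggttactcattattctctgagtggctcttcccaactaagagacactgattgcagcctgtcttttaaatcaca
St7: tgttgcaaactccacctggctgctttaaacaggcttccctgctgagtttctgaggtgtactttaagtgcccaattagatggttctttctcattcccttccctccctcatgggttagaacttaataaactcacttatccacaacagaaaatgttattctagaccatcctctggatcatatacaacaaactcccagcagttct
Rgs3: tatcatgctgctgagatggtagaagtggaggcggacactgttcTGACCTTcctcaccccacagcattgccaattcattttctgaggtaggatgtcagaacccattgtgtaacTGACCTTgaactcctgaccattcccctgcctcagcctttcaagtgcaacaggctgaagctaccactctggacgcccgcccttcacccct

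The Zbtb34 peak had the highest IAA value of the 301. It lay in intergenic sequence 5162 bp from the start of Zbtb34, which encodes a BTB-domain zinc finger protein, and carried the active enhancer flag. Its signal was 0.346 and 0.732 RPKM in uninduced replicates 1 and 2 (1 and 3 reads) and 4.93 and 6.32 RPKM in IAA replicates 1 and 2 (34 and 12 reads). The condition values were 0.539 ± 0.273 (SD, n = 2) and 5.63 ± 0.983 (SD, n = 2), and the ratio of reads merged over replicates and scaled to depth was 9.14 with an exact 95% interval of 3.34 to 35.0. Both IAA libraries were far above both uninduced libraries, while the uninduced values rested on 4 reads in all, which is why the upper bound of the interval is so wide.

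The next peaks of this kind had the same uninduced counts of 1 and 3 reads. The peak nearest to Fgf7, a fibroblast growth factor acting on epithelia, was in an intron of Fgf7 and of the overlapping gene Fam227b, with 4.06 and 6.85 RPKM after IAA (28 and 13 reads). The peak in an intron of Retreg1, a receptor for autophagy of the endoplasmic reticulum, lay 1308 bp from the gene's start and had 4.64 and 5.80 RPKM after IAA (32 and 11 reads). In both the IAA libraries stood clear of the uninduced ones. IAA replicate 2 was the higher, in a library where 1 read is worth 0.527 RPKM.

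The Tbc1d1 peak was intergenic and 201662 bp from the start of that gene, a GTPase-activating protein for RAB proteins, and it carried the enhancer flag. It had 0.692 and 0.732 RPKM in uninduced cells (2 and 3 reads) and 3.92 and 5.80 RPKM after IAA (27 and 11 reads). The St7 peak, in an intron of the gene, had 1 and 3 uninduced reads and 3.77 and 5.80 RPKM after IAA (26 and 11 reads). The Rgs3 peak, in an intron of this regulator of G protein signalling, had 1 and 3 uninduced reads and 3.92 and 5.27 RPKM after IAA (27 and 10 reads). These 3 peaks had IAA values that differed between replicates by more than the uninduced ones did.

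The remaining 2 of the 8 highest peaks of this kind lay in introns of Scpep1, a serine carboxypeptidase, and Tcf7l1, a repressor at WNT target genes that limits expression of pluripotency genes. The Scpep1 peak (chr11:88954837-88955187) was 453 bp from the gene's start and carried the promoter and enhancer flags, with 2 reads in each uninduced library (0.692 and 0.488 RPKM) and 3.34 and 5.80 RPKM after IAA (23 and 11 reads). The Tcf7l1 peak (chr6:72723237-72723587) was 52008 bp from the gene's start, with 1 and 3 uninduced reads and 2.61 and 5.80 RPKM after IAA (18 and 11 reads). Tcf7l1 had the widest replicate gap of the 8, with an IAA value of 4.20 ± 2.25 (SD, n = 2), so its size after IAA rested largely on the shallow IAA replicate 2.

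Over all 301 peaks the uninduced condition value ran from 0.295 to 0.885 RPKM with a median of 0.783, and the IAA value ran from 2.02 to 5.63 RPKM with a median of 3.08. The SD between replicates had a median of 0.216 RPKM in uninduced cells and 0.767 RPKM after IAA. The median ratio of IAA to uninduced was 4.21 (range 2.28 to 10.4), against 1.68 over all bound peaks, a gap that the rule sets. The emerging peaks were not strong peaks after IAA: their median sat at the 28.1 percentile of bound peaks and the highest at the 71.9 percentile.

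**Figure D1:**
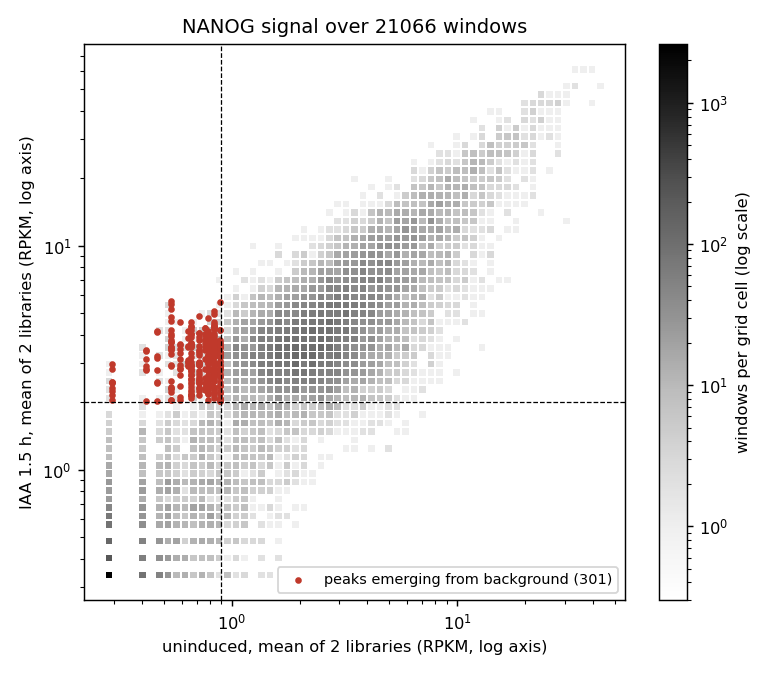
NANOG signal in uninduced cells (x axis) and after 1.5 h of IAA (y axis), in RPKM on log axes, each the mean of 2 libraries. Grey squares are grid cells shaded by the number of the 21066 windows they hold, red points are the 301 emerging peaks, and dashed lines mark 0.9 and 2 RPKM; the red points form the left edge of the cloud of bound peaks and end at 5.63 RPKM.

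Many windows sat close to the lines that define the group. The highest uninduced value inside was 0.885 RPKM and the lowest outside, among windows at 2 RPKM or more after IAA, was 0.905 RPKM. There were 109 members with an uninduced value of 0.8 to 0.9 RPKM, and 158 windows with 0.9 to 1.0 RPKM that met the IAA threshold and were left out. The IAA threshold cut through fewer windows, with 14 members at 2.0 to 2.1 RPKM and 10 windows at 1.9 to 2.0 RPKM just outside. The reverse pattern, 2 RPKM or more in uninduced cells and under 0.9 RPKM after IAA, was met by 2 windows. Bound peaks as a whole were higher after IAA (median ratio 1.68), and this count was taken without removing that rise.

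The uninduced values rested on very few reads. The libraries held 8236968 and 11674801 reads in uninduced cells and 19634763 and 5406307 reads after IAA, in replicate order, so that 1 read was worth 0.346, 0.244, 0.145 and 0.527 RPKM. The emerging peaks held 1 to 4 reads (median 2) in uninduced replicate 1 and 1 to 5 reads (median 3) in replicate 2, but 6 to 41 reads (median 21) in IAA replicate 1 and 1 to 13 reads (median 6) in IAA replicate 2. The lowest value in each library stands for 1 read, and a window without reads cannot be told from it. This floor was reached in at least 1 uninduced library by 148 emerging peaks (49.2%), against 774 (4.75%) of the 16307 other bound peaks. The rule largely sets that gap, because 0.9 RPKM is worth 2.60 reads in uninduced replicate 1 and 3.69 reads in replicate 2.

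**Figure D2:**
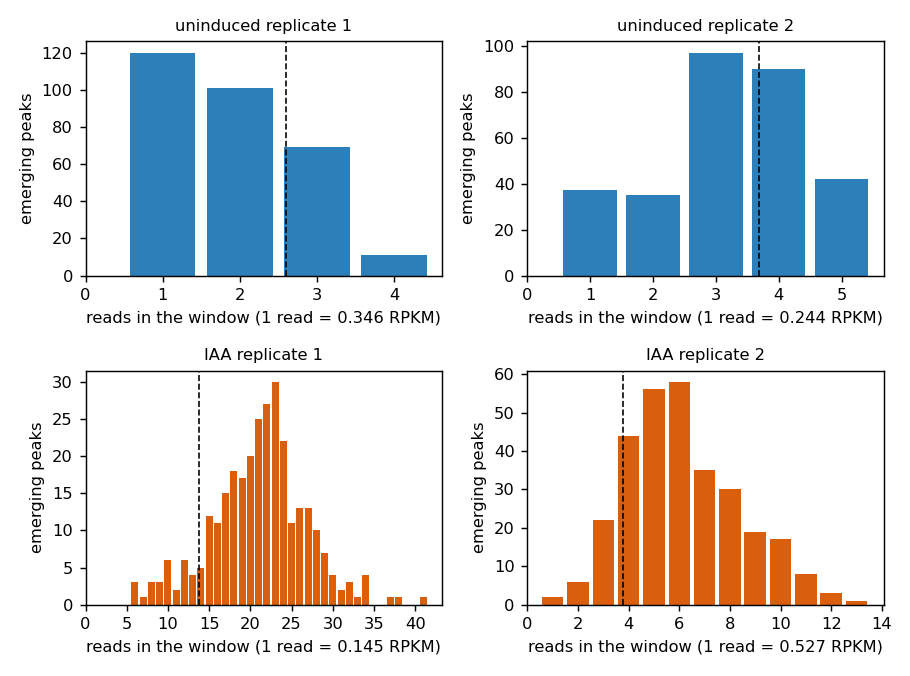
Reads per window (x axis) and number of emerging peaks with that many reads (y axis) in each of the 4 libraries, for all 301 peaks. The dashed line marks 0.9 RPKM in the uninduced libraries and 2 RPKM in the IAA libraries; uninduced replicate 1 has its mode at 1 read (120 peaks), and IAA replicate 1, the deepest library, is centred on 21 reads.

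The libraries separated by condition at most members. The IAA libraries were both higher than either uninduced library at 296 of 301 peaks (98.3%), where 60.5% of all bound peaks did so, a count that the rule largely fixes. The 5 exceptions were named after their values were seen. The peaks nearest to Ryr2, Galnt15 and Dyrk1a had 1, 1 and 2 reads in IAA replicate 2 beside 25, 28 and 31 reads in IAA replicate 1, and those nearest to Carmil1 and 4930447F04Rik had 1.02 and 0.871 RPKM in IAA replicate 1 beside 3.16 RPKM in IAA replicate 2. At each of these a single IAA library carried the condition value past the threshold.

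Agreement with the thresholds in every library was much less common. Both uninduced libraries were under 0.9 RPKM at 89 peaks (29.6%), uninduced replicate 1 alone at 132 and replicate 2 alone at 80. Both IAA libraries reached 2 RPKM at 243 peaks (80.7%), IAA replicate 1 alone at 30 and replicate 2 alone at 28. All 4 libraries were on their side at 67 peaks (22.3%), and the mean of 2 libraries was needed to place the other members.

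The 9 peaks with 1 read in both uninduced libraries had the lowest uninduced values, and they were weak after IAA (2.05 to 2.96 RPKM, median 2.43). Of these, 8 were over 50% repeat-masked sequence. The highest was in an intron of Fut10, a fucosyltransferase (chr8:31241193-31241543), with 2.76 and 3.16 RPKM after IAA (19 and 6 reads) and a merged ratio of 9.94 with an interval of 2.48 to 86.6. These 9 peaks were picked out after their values were seen. Their uninduced values show only that signal was not detectable at this depth.

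Each library was also read as one that the rule did not use. When uninduced replicate 1 was set aside, 384 windows met the rule on the other 3 libraries, and their median in the library set aside was 1.38 RPKM, against 0.732 RPKM in the uninduced library used and 2.08 RPKM over bound peaks. When uninduced replicate 2 was set aside, 1216 windows met the rule, with a median of 1.95 RPKM in that library, against 0.692 RPKM in the one used and 2.93 RPKM over bound peaks. The uninduced library not used was under 0.9 RPKM at 89 windows in both cases. These are necessarily the same 89 members, those with both uninduced libraries under 0.9 RPKM. They were 23.2% and 7.32% of the windows chosen, where 11.2% and 5.38% of bound peaks were under 0.9 RPKM. The windows were low in uninduced cells relative to other bound peaks in both replicates, but most were above the background level in the replicate not used.

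The IAA side held more often. Without IAA replicate 1, 363 windows met the rule and had a median of 2.76 RPKM in that library, with 243 (66.9%) at 2 RPKM or more. Without IAA replicate 2, 298 windows met it and had a median of 3.16 RPKM there, with 243 (81.5%) at 2 RPKM or more. Both counts of 243 are the same members, those with both IAA libraries at 2 RPKM or more. Over bound peaks these shares were 91.6% and 87.3%, so the IAA library not used was at or above the threshold at most windows chosen and less often than at a bound peak taken at large.

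A choice on 1 uninduced and 1 IAA library, read in the 2 libraries it did not use, left a rise of the size found at bound peaks in general or slightly more. These readings were added after the other results were seen. The 1228 windows chosen on replicate 1 of both conditions had a median ratio of 5.98 in those libraries and of 1.80 (quartiles 1.20 and 2.70) in replicate 2 of both conditions, against 1.44 over bound peaks. The 423 windows chosen on replicate 2 of both conditions went from 5.04 to 2.10 (quartiles 1.31 and 3.22), against 1.98 over bound peaks.

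The crossed choices gave similar values. The 1226 windows chosen on uninduced replicate 1 and IAA replicate 2 had a median ratio of 1.78 in the other libraries, against 1.43 over bound peaks, and the 384 chosen on uninduced replicate 2 and IAA replicate 1 had 2.03, against 2.03. Signal was higher after IAA in the libraries not used at 81.5% to 89.0% of the windows chosen, and at 74.0% to 88.0% of bound peaks in the same libraries. The 4 choices share libraries and are not independent.

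**Figure D3:**
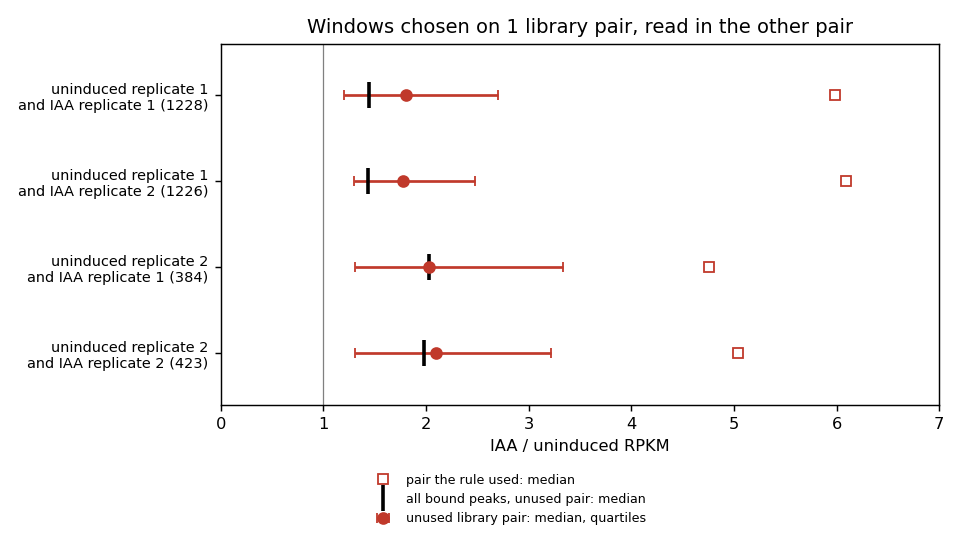
Ratio of IAA to uninduced RPKM (x axis) for windows that met the thresholds in the pair of libraries named on the left, with the number of windows in brackets. Open squares are medians in the pair used (4.76 to 6.09), filled circles with bars are medians and quartiles in the pair not used (medians 1.78 to 2.10), and black ticks are the medians of all 16608 bound peaks in the pair not used (1.43 to 2.03).

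The same thresholds were also met between replicates of one condition. Uninduced replicate 1 under 0.9 RPKM and uninduced replicate 2 at 2 RPKM or more occurred at 535 windows, and the reverse at 124 windows. Between the IAA replicates the counts were 88 and 134 windows. From an uninduced to an IAA library they were 1228 and 1226 windows for uninduced replicate 1 and 384 and 423 windows for uninduced replicate 2, while the opposite direction gave 12 to 86 windows. Every count from an uninduced to an IAA library was above its opposite. Each was also above the count between uninduced replicates with the same low library, 535 for replicate 1 and 124 for replicate 2. The counts for uninduced replicate 2 were still below the 535 windows found with replicate 1 as the low library.

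OCT4 co-binding was less common among the emerging peaks than among other bound peaks. An OCT4 site called from published reads lay within 1 kb of 23 of the 301 peaks (7.64%, 95% Wilson interval 5.15% to 11.2%), against 24.0% of other bound peaks. It lay within 1 kb of 22.0% of the 10186 windows that were already bound in uninduced cells and had an IAA value in the range of the emerging peaks, so the lower share was not one of all peaks of this strength after IAA. It was close to the shares of other windows that started low, 10.2% of the 481 windows that rose only to between 0.9 and 2 RPKM (faint peaks) and 8.57% of the 4458 sub-threshold windows. Among the 67 peaks with all 4 libraries on their side the share was 1.49%, which is 1 peak. Here and below, intervals cover counting error over windows of the same 4 libraries and are not errors of the treatment.

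Of the 5240 windows under 0.9 RPKM in uninduced cells, 5.74% emerged (95% Wilson interval 5.15% to 6.41%), and of the 454 with an OCT4 site 5.07% did (3.40% to 7.49%). These intervals overlap. Of the 2573 low windows without any flag 9.29% emerged (8.23% to 10.5%), an interval above that of windows with an OCT4 site. These 2 sets are not alike, because windows without a flag exclude repressed chromatin (H3K9me3 or H3K27me3), where 1.0% of low windows emerged. Of the 23 emerging peaks with an OCT4 site, 5 were repressed and 9 were over 50% repeat-masked. The part of repressed chromatin and repeats in these rates was not tested.

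The OCT4 co-bound peaks had a median IAA value of 2.79 RPKM (2.04 to 4.55) and a median ratio of 3.84. The strongest was in an intron shared by Tacc2, a centrosomal coiled-coil protein, and Fgfr2, a receptor for fibroblast growth factors (chr7:130689977-130690327), with 0.692 and 0.976 RPKM in uninduced cells (2 and 4 reads) and 4.35 and 4.74 RPKM after IAA (30 and 9 reads). The intergenic peak nearest to Adgrb1, an adhesion G protein-coupled receptor (chr15:74224207-74224557), had 1.04 and 0.732 RPKM in uninduced cells and 3.63 and 4.74 RPKM after IAA. The libraries of the conditions were apart at both, although 1 uninduced library of each was above 0.9 RPKM.

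The peak in an intron of Zfhx4, a zinc finger homeobox gene (chr3:5307849-5308199), had 1.04 and 0.244 RPKM in uninduced cells (3 reads and 1 read) and 3.05 and 5.27 RPKM after IAA (21 and 10 reads). The peak in an intron of Dcp2, the mRNA decapping enzyme, had 0.346 and 0.976 RPKM in uninduced cells (1 and 4 reads) and 4.93 and 3.16 RPKM after IAA (34 and 6 reads). The uninduced replicates disagreed at both, with 1 replicate above 0.9 RPKM and the other well under it.

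Most emerging peaks carried no flag, and few were in an active chromatin class. Classes came from published ESC peak sets: active promoter, active enhancer (near P300 and H3K27ac) and repressed (H3K9me3 or H3K27me3). The enhancer class held 22 emerging peaks (7.31%, 95% Wilson interval 4.88% to 10.8%), 10.6% of other bound peaks, 3.12% of faint peaks (1.9% to 5.08%) and 2.85% of sub-threshold windows. This share was 12.9% of the 116 peaks chosen after IAA values were divided by the median ratio of bound peaks. The promoter class held 8 (2.66%, 1.35% to 5.16%), 2.88%, 1.87% and 1.46% in the same order. The intervals of emerging and faint peaks overlap for both classes, for the enhancer class only at their ends (4.88% and 5.08%). Overlap of intervals is not a test of difference. No flag of any kind was present at 239 emerging peaks (79.4%) and at 66.9% of other bound peaks, 59.0% of faint peaks and 46.0% of sub-threshold windows.

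Enhancer-class windows that were low in uninduced cells emerged in 22 of 164 cases (13.4%, 95% Wilson interval 9.03% to 19.5%). The rate for the promoter class was 8 of 82 (9.76%, 5.03% to 18.1%). Low windows without a flag emerged in 239 of 2573 cases (9.29%, 8.23% to 10.5%), an interval that overlaps both, while the 5.74% of all low windows includes the many repressed ones. The 22 enhancer peaks had a median IAA value of 3.62 RPKM and the 8 promoter peaks one of 3.55 RPKM, above the 3.08 RPKM of all members. Over 50% repeat-masked were 3 of the 22 and 0 of the 8, and the 229 members at most 50% masked had a median of 3.30 RPKM. The rule also used the IAA value. Beside Zbtb34, Tbc1d1 and Scpep1, the highest enhancer-class peak was 352 bp from the start of Lrrn4, a leucine-rich repeat membrane protein (chr2:132881068-132881418), with 0.346 and 0.976 RPKM in uninduced cells (1 and 4 reads) and 4.50 and 4.22 RPKM after IAA (31 and 8 reads).

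Promoter-class peaks after Scpep1 were those nearest to Spred1, Kank2 and Actg1. The Kank2 peak (chr9:21799042-21799392), 473 bp from the gene's start, had 1.04 and 0.488 RPKM in uninduced cells and 3.19 and 4.74 RPKM after IAA. The Actg1 peak (chr11:120350919-120351269) lay in an exon of the noncoding gene 0610009L18Rik, 2552 bp from the start of Actg1, which encodes cytoplasmic gamma-actin, and had 1.04 and 0.732 RPKM in uninduced cells and 3.34 and 4.22 RPKM after IAA. All 8 promoter-class peaks had both IAA libraries above both uninduced ones, as did 98.3% of all members and 60.5% of bound peaks. The rule largely fixes that count. Each library was on its side at 3 of the 8, beside 22.3% of all members.

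Repressed chromatin was uncommon among emerging peaks relative to windows that stayed low. The repressed class held 24 emerging peaks (7.97%, 95% Wilson interval 5.42% to 11.6%), against 5.54% of other bound peaks, 33.9% of faint peaks and 49.5% of sub-threshold windows. Of the 2395 repressed windows that were low in uninduced cells, 1.00% emerged. The share depended on the libraries used: it was 16% of the windows chosen without IAA replicate 1, 4.69% without uninduced replicate 1, 4.93% without uninduced replicate 2 and 7.72% without IAA replicate 2. It was 1.88% of members with an IAA value of 3 RPKM or more. Among windows already bound in uninduced cells with an IAA value in the members' range, 3.64% were repressed (3.3% to 4.02%). That interval lies below the one of emerging peaks.

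Repeats moved with this class. Of the 24 repressed peaks, 23 were over 50% repeat-masked, that is, in lower case in the reference sequence. Such windows made up 72 emerging peaks (23.9%), 16.9% of other bound peaks, 73.4% of faint peaks and 81.9% of sub-threshold windows. They made up 13.1% (12.4% to 13.7%) of windows already bound with an IAA value in the members' range. The 72 peaks had a median IAA value of 2.46 RPKM, against 3.30 RPKM for the other 229. The part of repeats in the class shares was not tested.

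The strongest repressed-class peak was intergenic and nearest to Mat2b, a regulatory subunit of methionine adenosyltransferase (chr11:40568422-40568772), at 116630 bp. It had 0.346 and 1.22 RPKM in uninduced cells (1 and 5 reads) and 3.19 and 6.32 RPKM after IAA (22 and 12 reads). The peak nearest to the olfactory receptor gene Olfr1358 (chr10:78499259-78499609) had 1.04 and 0.732 RPKM in uninduced cells and 4.35 and 2.63 RPKM after IAA. Those nearest to Dtwd2 and Pcmtd1 were 78.6% and 84.9% repeat-masked and had IAA values of 3.53 ± 1.71 and 2.93 ± 1.07 (SD, n = 2). At these the SD between IAA replicates exceeded the uninduced one (0.216 and 0.446 RPKM).

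**Figure D4:**
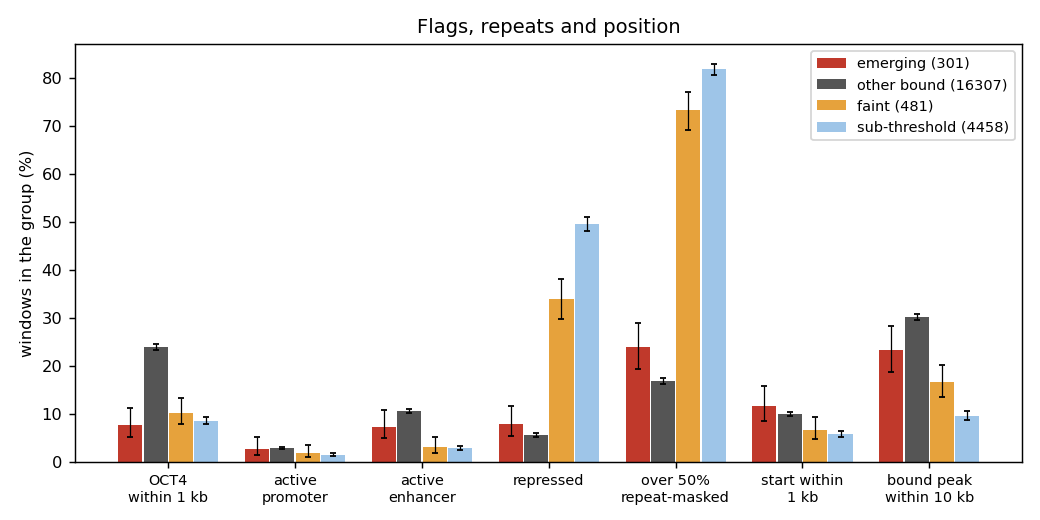
Share of windows (y axis, %) with each flag or position (x axis) among the 301 emerging peaks, 16307 other bound peaks, 481 faint peaks (under 0.9 RPKM in uninduced cells, 0.9 to 2 RPKM after IAA) and 4458 sub-threshold windows. Bars start at 0 and error bars are 95% Wilson intervals; emerging peaks are close to the low windows in OCT4 sites (7.64%) and lie nearer to bound peaks in repressed chromatin (7.97%) and repeats (23.9%).

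In the genome the emerging peaks were placed much like other bound peaks. Introns of protein-coding genes held 132 (43.9%, other bound peaks 45.5%), intergenic sequence 136 (45.2%, 42.8%), coding exons 7 and untranslated regions 6. The median distance to the nearest transcript start was 8684 bp, against 9410 bp. The share of bound peaks that were emerging ran from 0.913% on chromosome 17 to 2.49% on chromosome 13, with 0 of 21 on Y and 6 of 245 on X.

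A protein-coding transcript start lay within 1 kb of 24 emerging peaks (7.97%), 6.75% of other bound peaks and 3.12% of faint peaks. Of the 137 low windows at such starts, 24 emerged (17.5%, 95% Wilson interval 12.1% to 24.7%), beside 9.29% of low windows without a flag (8.23% to 10.5%). None of these 24 was over 50% repeat-masked. None was in the repressed class either. The part of repeats in these rates was not tested.

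The highest of them was 268 bp from the start of Fyb2 (chr4:104913013-104913363), with 0.692 and 0.976 RPKM in uninduced cells (2 and 4 reads) and 4.06 and 5.80 RPKM after IAA (28 and 11 reads). The peak 401 bp from the start of Mdk, which encodes the heparin-binding growth factor midkine (chr2:91932523-91932873), had 0.346 and 1.22 RPKM in uninduced cells (1 and 5 reads) and 3.77 and 3.69 RPKM after IAA (26 and 7 reads). The peak in a coding exon of Mphosph6, a cofactor of the RNA exosome (chr8:117792594-117792944), had 0.346 and 0.976 RPKM in uninduced cells and 3.63 and 3.69 RPKM after IAA. IAA replicates were close at Mdk and Mphosph6 while the uninduced ones were not, and at both uninduced replicate 2 was above 0.9 RPKM.

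No pair of emerging peaks lay within 10 kb of each other (0%, 95% Wilson interval 0% to 1.26%). An emerging peak was that close to 0.527% of other bound peaks, so the absence of pairs does not set the members apart. Another bound peak was within 10 kb of 70 (23.3%, 95% Wilson interval 18.8% to 28.3%), against 30.2% of other bound peaks, 16.6% of faint peaks and 9.56% of sub-threshold windows. A bound peak with an OCT4 site was within 10 kb of 17 (5.65%), against 9.60% of other bound peaks.

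The 70 neighbours were ordinary bound peaks. Their median was 2.61 RPKM in uninduced cells and 3.83 RPKM after IAA, a median ratio of 1.64 beside 1.68 for all bound peaks. After IAA the neighbour was stronger than the emerging peak in 50 of 70 pairs, and 65 of the 70 neighbours were higher after IAA than before, as were 14230 of all 16608 bound peaks. Low windows with a bound peak within 10 kb emerged in 70 of 576 cases (12.2%, 9.73% to 15.1%). All low windows emerged at 5.74% (5.15% to 6.41%) and those without a flag at 9.29% (8.23% to 10.5%). The part of repeats and of the repressed class in these rates was not tested.

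Emerging peaks were about as rare near listed genes of the pluripotency network, early lineages, signalling pathways and chromatin regulation as near protein-coding genes in general. Of 144 listed genes, 113 (78.5%) had a bound peak within 50 kb of a transcript start and 3 (2.08%) had an emerging one, while over all 21911 protein-coding genes the shares were 54.9% and 1.96%. Among genes with a bound peak, an emerging one was present for 2.65% of listed genes and 3.57% of all protein-coding genes. None of the 22 naive pluripotency genes had an emerging peak, although 20 had a bound one. Nor did any of the 14 formative and primed, 12 trophectoderm, 10 endoderm, 14 WNT, 16 Nodal and BMP or 10 LIF and MYC genes. With so low a share over all genes, lists of 10 to 22 genes can easily hold none, so these absences say little. The Tcf7l1 peak described above lay just beyond 50 kb. The lists were drawn up with earlier results of these data known.

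The 3 genes were Spred1, Sox1 and Kdm5b. Spred1, an inhibitor of RAS to ERK signalling, had 2 emerging peaks. The one at chr2:117119437-117119787, 1762 bp from its start, carried the OCT4, promoter and enhancer flags, with 0.692 and 0.976 RPKM in uninduced cells (2 and 4 reads) and 2.76 and 5.27 RPKM after IAA (19 and 10 reads). The other, at chr2:117092675-117093025 and 28524 bp away, had the same uninduced reads and 3.19 and 3.16 RPKM after IAA (22 and 6 reads). Both peaks had uninduced replicate 2 just above 0.9 RPKM, and only the farther one had close IAA replicates.

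Sox1, a transcription factor of early neural cells, had an intergenic emerging peak 49186 bp from its start (chr8:12345934-12346284), with 0.346 and 0.732 RPKM in uninduced cells (1 and 3 reads) and 3.34 and 3.69 RPKM after IAA (23 and 7 reads). The peak 22415 bp from the start of Kdm5b, a histone H3K4 demethylase (chr1:134645040-134645390), lay in an intron of the noncoding gene Gm26783 and nearer to Syt2, a synaptic calcium sensor. It had 0.346 and 0.976 RPKM in uninduced cells and 2.61 and 3.16 RPKM after IAA. The Sox1 peak had all 4 libraries on their side, and the Kdm5b peak did not.

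The motifs of the emerging peaks resembled those of other bound peaks over whole windows. Near the window centre the homeodomain core was less common than in other bound peaks. Motifs were searched as exact letters on both strands of whole windows. CCATTA was present in 54 emerging peaks (17.9%), 20.9% of other bound peaks and 19.2% of all windows. Within 50 bases of the window centre it was present in 10 emerging peaks (3.32%, 95% Wilson interval 1.81% to 6.01%), against 9.31% of other bound peaks, 8.99% of the peaks already bound with an IAA value in the same range, 8.11% of faint peaks and 5.27% of sub-threshold windows. The interval of emerging peaks overlaps that of faint peaks (5.99% to 10.9%) only at its upper end and holds that of sub-threshold windows (4.65% to 5.97%). Overlap of intervals is not a test of difference. The median distance of the nearest match from the centre was 79.0 bases in the 54 emerging peaks. It was 58.5 bases in other bound peaks that held a match. Over the other ways of choosing the peaks the central share ran from 1.49% to 6.58%, the highest being the 1216 windows chosen without uninduced replicate 2.

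The other motifs did not separate the emerging peaks from bound peaks in this way. ACAAAG was present in 48.5% of emerging peaks, 49.4% of other bound peaks and 43.9% of all windows, and within 50 bases of the centre in 23.6% of emerging peaks, 24.6% of other bound peaks and 9.15% of faint peaks. AAGGTCA was present in 21.9%, 18.7% and 16.3% of the first 3 groups, and within 50 bases of the centre in 8.97% of emerging and 6.0% of other bound peaks. The octamer ATGCAAAT, an OCT4 sequence, was present in 4 emerging peaks (1.33%), 2.99% of other bound peaks and 3.71% of all windows. GGGTGTG, a KLF sequence, was in 11.6%, 13.7% and 12.6% of these groups, and TTCCNGGAA, a STAT sequence, in 1.33%, 1.63% and 1.35%.

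**Figure D5:**
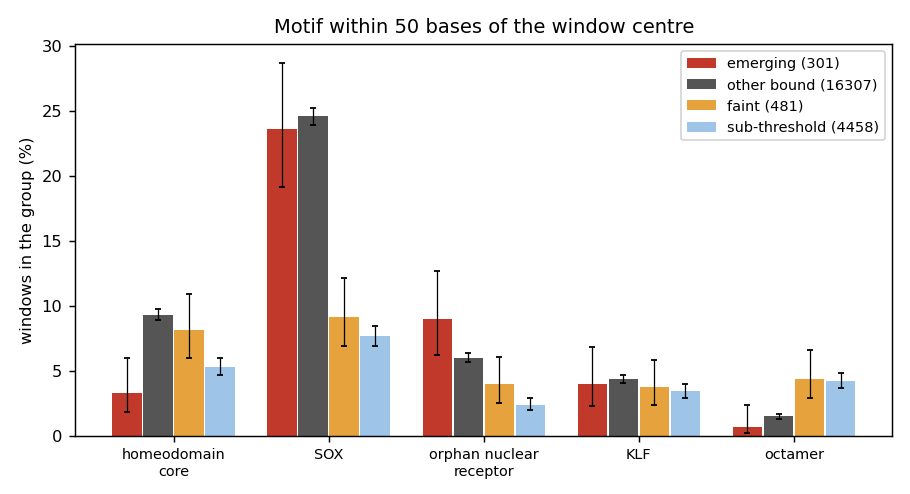
Share of windows (y axis, %) with a motif within 50 bases of the window centre (x axis: homeodomain core, SOX, orphan nuclear receptor, KLF and octamer sequences) in the 301 emerging peaks, 16307 other bound peaks, 481 faint peaks and 4458 sub-threshold windows. Bars start at 0 and error bars are 95% Wilson intervals. Emerging peaks have the lowest share for the homeodomain core (3.32%). Its interval overlaps that of faint peaks only at its upper end and holds that of sub-threshold windows. They are close to other bound peaks for the SOX sequence (23.6% and 24.6%).

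Base composition moved with both the peaks and the libraries. The median GC content was 47.3% in emerging peaks and 46.2% in other bound peaks. Emerging peaks were 1.44%, 1.39%, 2.36% and 2.10% of bound peaks from the lowest to the highest quartile of GC, and the median ratio of IAA to uninduced over bound peaks was 1.51, 1.64, 1.80 and 1.77 in the same order. In the highest quartile the median of uninduced replicate 1 was 1.73 RPKM, against 2.42 RPKM in the lowest, and that of uninduced replicate 2 was 2.44 RPKM, against 3.17 RPKM. IAA replicate 1 had 3.77 RPKM in the highest and 3.63 RPKM in the lowest quartile, while IAA replicate 2 had 3.69 and 4.22 RPKM. The part of base composition in which windows emerged was not tested.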

How the data were processed

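The deposited RPKM tables of the 4 NANOG ChIP-seq libraries and a pooled table of condition values with flags were used. Per the submitters' processing notes and the methods of the study, alignment to GRCm38/mm10 used Bowtie2 (2.3.4.3), duplicates were removed with SAMtools, peaks were called with MACS2 on both conditions pooled, and the authors computed RPKM with DiffBind, without a spike-in. The pooled value is the mean of 2 libraries. Replicates were separate immunoprecipitations, and nothing in the sources says whether they came from separate cultures. Reads were recovered here by dividing RPKM by the smallest value of each library, and all values came out whole to within 0.001 reads.

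Members had an uninduced value under 0.9 RPKM and an IAA value of 2 RPKM or more. Members, motifs and gene lists were chosen with earlier results of these data known. No test was run, since the rule used the contrast. Shares have Wilson intervals and merged-read ratios exact conditional intervals. Named peaks were the 8 highest by IAA among those with each library on its side, the 4 highest per flag, the 6 highest within 1 kb of a protein-coding start, and those within 50 kb of a listed gene. Positions came from GENCODE M21, and sequences from RefSeq GRCm38.p6. Motif distances from the centre and readings in unused library pairs were added after results were seen. Scripts (Python 3.11.15, numpy 2.4.6, pandas 2.3.3, scipy 1.17.1, matplotlib 3.10.9) were tested on simulated data. The 12 alternatives are given at the end.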

Additional observations from a re-analysis of the deposited data

How the results depend on the processing

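The number of emerging peaks, 301, depended on how the libraries were combined and scaled. It was 635 after thinning to equal depth (192 of the 301 among them), 116 with IAA values divided by the median ratio of bound peaks (1.68), 67 after quantile normalization, 67 with the rule required in each library and 160 at 3 RPKM or more. Leaving out 1 library gave 298 to 1216, the highest without uninduced replicate 2. It was 318 with merged reads (282 shared), 410 with 1-read windows taken as 0 and 299 with at least 2 reads in each IAA library. The share with both IAA libraries above both uninduced ones, 98.3%, was 94.5% after thinning, 100% with the median ratio removed, with the rule in each library and at 3 RPKM, and 99.8% to 100% with 1 library left out, where 3 libraries are compared. The OCT4 co-bound share, 7.64%, was 1.49% with the rule in each library and stayed inside its Wilson interval otherwise. The other 5 shares moved outside theirs in 9 of 60 recomputations, 6 of them for the repressed class (1.88% to 16%) and 1 for the enhancer class (12.9% with the median ratio removed). The causes were not tested. No paired analysis was possible because the results come from no test. With 2 libraries a condition and medians of 2 and 3 uninduced reads, depth limits every uninduced value.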
